A study of Mus musculus with 6 samples.

Results

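The genes described here are the expressed members of the mouse Zfp series of zinc finger genes, measured by RNA sequencing of whole liver. Members were chosen by name and level: a protein-coding gene whose symbol is Zfp followed by a digit, other than Zfp36, whose mean over 6 libraries was 1 FPKM or more. FPKM counts sequenced fragments relative to gene length and library depth, so levels of different genes can be set side by side. The rule took in 187 of 395 protein-coding Zfp genes, out of 54086 features in all. The mean level was thus selected on measured values and is described below without a test, while the difference between genotypes took no part in the rule.

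The study compared livers of Mettl3 flox/flox mice (n = 3 libraries) with livers of HKO mice (n = 3 libraries). In HKO mice the floxed Mettl3 gene was deleted in hepatocytes, and all mice were 8 weeks old and on chow. Mettl3 is the active subunit of the m6A methyltransferase of mRNA, and a floxed allele is left intact where Cre recombinase is absent. The sources used here give neither the Cre driver nor the deleted exons nor the sex of the mice. They do not tie each library to its own mouse, so a p-value here reflects library-to-library spread, which may be technical. Whole liver also holds cells that the deletion does not target.

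Most Zfp proteins are built from zinc fingers, short loops in which a pair of cysteines and a pair of histidines hold a zinc ion and neighbouring residues contact DNA. Many carry a KRAB box in front of the fingers, which recruits the corepressor Trim28 and, through it, the histone methyltransferase Setdb1, so that bound DNA is packed into silent chromatin; a large part of this family restrains retroelements and other repeats. Others lack the box and act as activators, as RNA-binding proteins or as ubiquitin ligases, and several of these names (Zfp36l1, Zfp598) stand for proteins that are not DNA-binding repressors at all.

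Targeted gene and depth came first. Mettl3 was measured at 1.88, 2.17 and 1.98 FPKM in the flox/flox libraries and at 2.45, 2.14 and 2.06 FPKM in the libraries labelled HKO. The HKO values were not below the flox/flox values, and the groups overlapped. The difference was 0.09 ± 0.11 on the log2(FPKM + 1) scale (SE), with a 95% interval of -0.16 to 0.35 and a limma adjusted p of 0.582, from 141 to 241 reads a library. Reads from undeleted exons or from other liver cells count toward this gene, so its level does not check the labels, and "HKO" below means the libraries labelled so. Reads per library rebuilt from the FPKM numbered 16529358 to 18556076.

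Expressed Zfp genes were mostly of low level. Their median of the mean level was 2.30 FPKM, against 5.34 FPKM over the 11086 features tested, and 75 of the 187 lay under 2 FPKM. Only 9 reached 10 FPKM, and 149 were above 1 FPKM in all 6 libraries. Just inside the rule lay Zfp953 (1.003 FPKM) and Zfp704 (1.012 FPKM), and just outside it Zfp748 (0.995 FPKM) and Zfp799 (0.991 FPKM). Since the mean of both groups decided membership, 12 members had a flox/flox mean under 1 FPKM and 5 an HKO mean under 1 FPKM. Among the 208 Zfp genes left out, 21 had no read in any library and 151 had a read in every library.

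Few Zfp genes were called between the genotypes, and the share called was below that of all features. On the log2(FPKM + 1) scale, with limma and a Benjamini-Hochberg adjusted p under 0.05 over all 11086 features, 9 members rose in HKO livers, 7 fell and 171 did not pass the test. Together the 16 are 8.56% of the members, against 12.8% of all features called in either direction. Rises made up 4.81% of members against a background of 5.95%, and falls 3.74% against 6.86%. The largest rise was 0.96 (Zfp984) and the largest fall -1.07 (Zfp946), both on the log2 scale. Within 0.5 of 0 lay 164 of the 187 members and 8480 of the 11086 features, with a median SE of 0.14 over members. The added 1 FPKM shrinks differences at low levels, and the members' median level was below that of all features. With 0.1 FPKM added instead, the rise of Zfp984 was 1.68 and the fall of Zfp946 -1.46. Their median was -0.013, with 91 members positive and 96 negative, beside -0.062 over all features. Of the 9 rises 3 (Zfp984, Zfp704 and Zfp229) had a flox/flox mean under 1 FPKM and met the level rule only through their HKO libraries, so their place among the rises is partly given by the rule. No fall had an HKO mean under 1 FPKM.

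The individual libraries gave a like picture. All 3 HKO values lay above all 3 flox/flox values in 32 members, where the same held for 16.8% of all features, and below them in 31 members, against 24.7%. These counts are 17.1% and 16.6% of the 187. Among the 154 members under 5 FPKM, 9 rose and 3 fell, or 5.84% and 1.95%. Protein-coding genes in that range gave 9.14% and 2.22%. Of the 33 members at or above 5 FPKM, none rose by limma and 4 fell (12.1%). An unadjusted p under 0.05 in either direction was seen for 11 of them, and for 2137 of 5394 protein-coding genes in that range. Protein-coding genes in that range gave 4.23% rises and 10.6% falls. In members and in protein-coding genes alike, rises were the larger share under 5 FPKM and falls the larger share at or above it. With 33 members and 4 calls in the upper range, closeness of the shares cannot be judged.

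**Figure D1:**
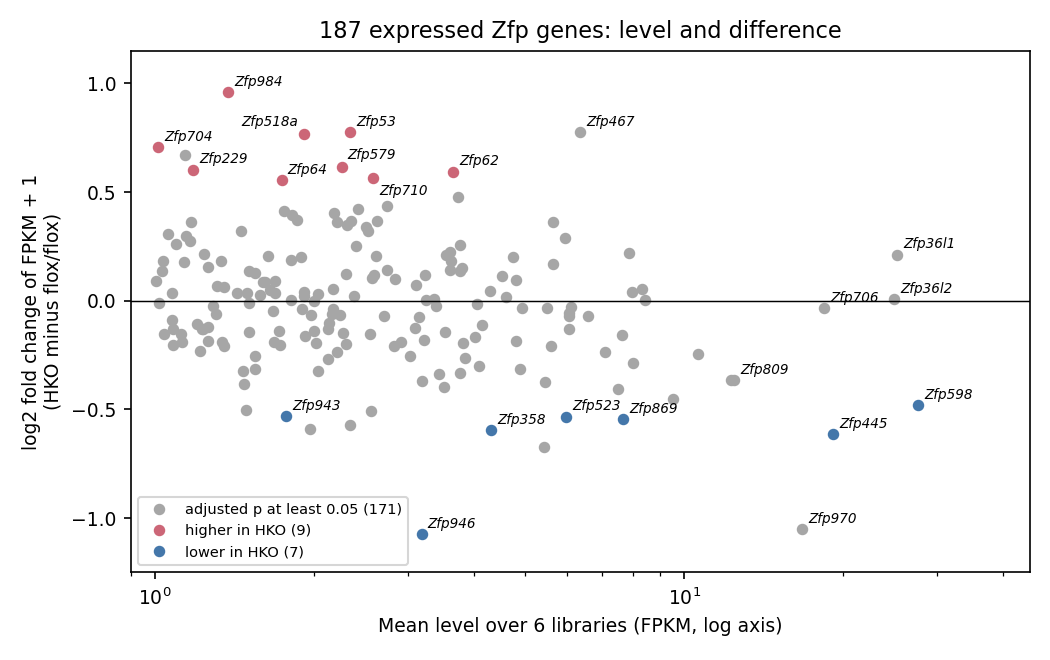
Each point is 1 of the 187 expressed Zfp genes, with its mean over 6 libraries (FPKM, log axis) and its log2 fold change of FPKM + 1, HKO minus flox/flox. The 9 rises (red) all lie under 5 FPKM, while 4 of the 7 falls (blue) lie above it, among them Zfp598 and Zfp445; grey points did not pass the test.

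The calls depended strongly on single libraries and on the scaling, in Zfp genes as in the whole table. Without flox/flox replicate 1 there were 7 rises and 5 falls among the members, where 13.1% of all features were called, and without flox/flox replicate 2 there were 2 and 0, against 3.32%. Leaving out flox/flox replicate 3, HKO replicate 1 or HKO replicate 2 left no member called by limma, in fits that called 0.271%, 0.541% and 1.08% of all features. Without HKO replicate 3 the only call among the members was the fall of Zfp946, against 3.66% of all features. The sign of all 16 differences was kept in each of these fits. In the full fit 47 of the 187 members had an unadjusted p under 0.05, where 3750 of all 11086 features did. Counts at an unadjusted p given below for smaller groups in this fit are to be read beside that background.

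Scaling moved the balance of rises and falls, for Zfp genes and for all features alike. The FPKM denominators followed size factors, which were 0.858 to 0.892 in the flox/flox libraries but 1.06 to 1.30 in the HKO libraries, so the scale itself differed by genotype. The summed FPKM of the members was 717, 705 and 691 in flox/flox against 661, 668 and 651 in HKO libraries, whereas their share of all reads was 0.269%, 0.319% and 0.302% in flox/flox and 0.365%, 0.355% and 0.397% in HKO libraries. By FPKM every HKO sum was below every flox/flox sum, and by share of reads every HKO value was above. Scaled to library totals, 32 members rose and 1 fell, where the background was 19.2% and 1.92%. Scaled to a common sum without the 20 most abundant genes, 36 rose and 1 fell, against 21.3% and 1.99%. Both scalings moved the median of all features to 0.26, and the Zfp median moved with it to 0.28, so relative to all features the family stayed near 0. A weighted fit of the rebuilt reads (limma voom) gave 14 rises and 4 falls, against 7.92% and 4.57%, and a median-of-ratios scaling over the tested features gave 10 and 4, against 6.77% and 4.47%. All 9 rises and the fall of Zfp946 were called under each of these 4 scalings; under quantile normalization 5 of the rises and 4 of the falls, Zfp946 among them, were called, where all features gave 5.86% and 3.48%. No call changed sign.

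**Figure D2:**
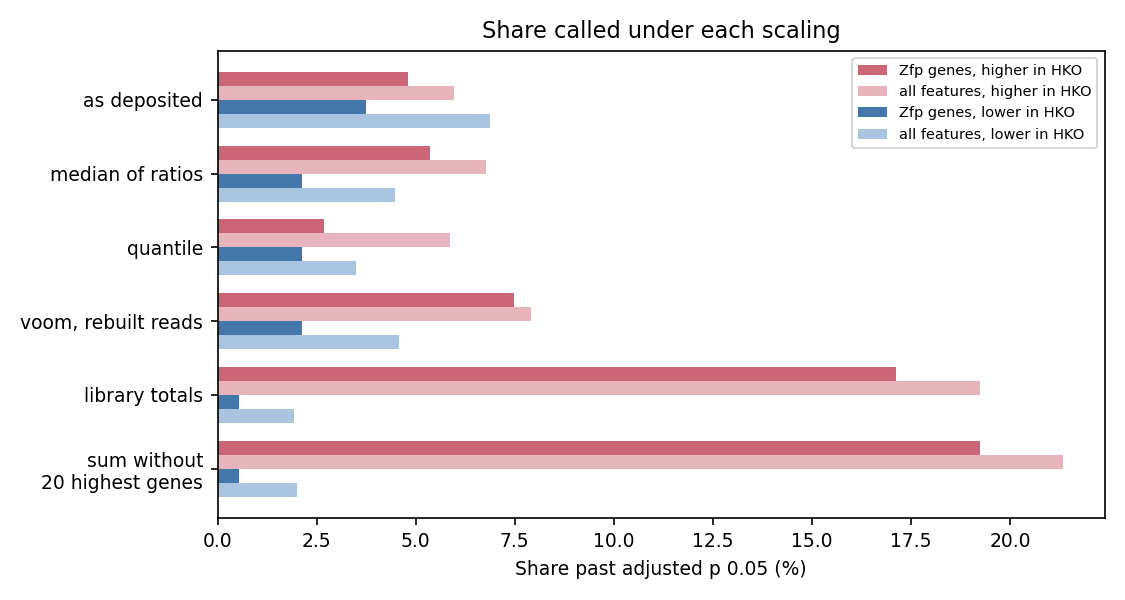
Bars give the share (%) of the 187 Zfp genes (dark) and of all 11086 features (pale) past an adjusted p of 0.05, higher (red) or lower (blue) in HKO, under 6 scalings. Zfp shares lie below those of all features in both directions under each scaling, and library totals or a common sum turn nearly all calls into rises.

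Liver is a mixture, and in such bulk samples fewer cells of a type and less RNA per cell cannot be told apart. Markers of several cell types moved with the genotype. Summed levels of 10 hepatocyte markers were 48538 to 79196 FPKM in flox/flox and 24105 to 43590 FPKM in HKO libraries, with 2 of 10 past the test, both lower. The 10 Kupffer cell and macrophage markers summed to 79.4 to 286 FPKM and 351 to 467 FPKM; all 10 were higher in every HKO library than in any flox/flox library, and 3 passed. Sums of 8 stellate cell and fibroblast markers were 32.4 to 37.3 FPKM and 52.6 to 69.1 FPKM, with 4 of 8 higher by the test. Markers of proliferating cells (8 genes) summed to 1.09 to 1.46 FPKM and 7.02 to 15.9 FPKM, those of neutrophils (8 genes, Ly6g at 0 in all libraries) to 1.25 to 1.90 FPKM and 5.72 to 11.7 FPKM, and those of cholangiocytes (7 genes) to 22.8 to 33.8 FPKM and 31.8 to 62.0 FPKM. T and NK cell markers (10 genes) summed to 0.654 to 2.54 FPKM and 3.74 to 12.7 FPKM, B and plasma cell markers (8 genes) to 1.28 to 3.15 FPKM and 3.70 to 6.67 FPKM, and sinusoidal endothelial markers (8 genes) to 29.5 to 88.0 FPKM and 65.5 to 90.1 FPKM. At the deposited scale, endothelial and cholangiocyte sums overlapped between the groups, and the others did not. Scaling to library totals would divide FPKM by 1.09 to 1.27 in flox/flox and by 0.813 to 0.919 in HKO libraries. That would bring the hepatocyte sums closer together and raise the other HKO sums relative to flox/flox. The separation of the hepatocyte sums is therefore given for the deposited scale, and it need not hold under library totals. Median-of-ratios factors spanned only 0.978 (HKO replicate 3) to 1.04 (flox/flox replicate 1), so that scaling would move the sums less. The part of these marker shifts in the Zfp differences was not tested.

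The largest changes in each direction, and the called gene with the most fingers, are shown by the coding DNA of 1 finger each. Capitals mark the codons of the cysteines and histidines that hold the zinc, so the differing bases between them can be read directly. The finger shown is the first in each protein with a fixed spacing of these residues, followed by the residues TGEKP. The shared frame and linker are thus given by the choice. The sequences are from the GENCODE annotation of GRCm38, coding strand, 78 bases each, 5′ to 3′. Finger 2 of 11 in Zfp984 (chromosome 4), finger 2 of 11 in Zfp946 (chromosome 17) and finger 2 of 25 in Zfp62 (chromosome 11) read as follows.
Zfp984: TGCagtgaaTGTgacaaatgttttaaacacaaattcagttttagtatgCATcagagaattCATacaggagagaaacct
Zfp946: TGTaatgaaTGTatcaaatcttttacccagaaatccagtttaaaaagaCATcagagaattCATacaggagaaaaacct
Zfp62: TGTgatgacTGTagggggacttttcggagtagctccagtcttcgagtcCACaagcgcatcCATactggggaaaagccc
The stretch after the last capitals is the linker to the next finger. Zfp984 and Zfp946 carry a KRAB box, and Zfp62 does not.

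Among KRAB genes that rose, Zfp984 (ENSMUSG00000078495, GRCm38 chromosome 4, 147753974 to 147809788, minus strand) was measured at 0.581, 0.828 and 0.406 FPKM in flox/flox and at 1.58, 2.07 and 2.77 FPKM in HKO libraries. All HKO values were above all flox/flox values. Means were 0.605 ± 0.212 and 2.14 ± 0.599 FPKM (SD, n = 3), a ratio of 3.54, and the log2 difference was 0.96 ± 0.18 (SE, adjusted p = 0.0278). Its libraries held only 18 to 180 reads, and 57.4% of the 50-base words of its transcript also occur in transcripts of other genes, most often Gm13212. Reads shared with such near copies make its level uncertain, and with the added 1 FPKM the log2 scale understates the change of genes this low.

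Zfp53 (ENSMUSG00000057409, chromosome 17, 21491256 to 21509764, plus strand), a KRAB gene of 15 fingers, stood at 1.38, 1.74 and 1.25 FPKM in flox/flox and at 2.96, 2.95 and 3.70 FPKM in HKO libraries. The groups were well apart, and the log2 difference of 0.78 ± 0.13 (SE) had the lowest adjusted p of the family, 0.0220. Only 0.497% of its words are shared with other genes. Its neighbour Zfp229, with 16 fingers and also a KRAB box, was measured at 0.514, 0.849 and 0.844 FPKM in flox/flox and at 1.64, 1.48 and 1.76 FPKM in HKO libraries, a rise of 0.60 on the log2 scale (adjusted p = 0.0387). Again every HKO library exceeded every flox/flox library.

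Rises without a KRAB box were led by Zfp518a (chromosome 19), at 0.772, 1.27 and 1.46 FPKM in flox/flox and 2.49, 2.40 and 3.09 FPKM in HKO libraries (log2 difference 0.76, adjusted p = 0.0329). Flox/flox replicate 1 was the lowest, and the groups did not overlap. Zfp704 (chromosome 3), the member nearest the level threshold among the calls, had 0.342, 0.683 and 0.564 FPKM against 1.68, 1.20 and 1.60 FPKM (0.71, adjusted p = 0.0346). It was below 1 FPKM in every flox/flox library and above it in every HKO library, and 18.2% of its words are shared, most often with C030034L19Rik.

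Zfp62 (ENSMUSG00000046311, chromosome 11, 49203292 to 49218816, plus strand), with 25 fingers the longest array among the calls, was measured at 2.60, 3.00 and 2.54 FPKM in flox/flox and at 4.20, 4.77 and 4.84 FPKM in HKO libraries. These groups were also apart, with means of 2.71 ± 0.250 and 4.60 ± 0.356 FPKM (SD, n = 3), a log2 difference of 0.59 ± 0.11 (SE) and an adjusted p of 0.0239. It shares no 50-base word with another gene's transcripts. Zfp62 and Zfp53 were the only members called without flox/flox replicate 2.

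Smaller rises came from Zfp579, Zfp710 and Zfp64. Zfp579 (chromosome 7) stood at 1.77, 1.55 and 1.39 FPKM in flox/flox and 2.91, 2.78 and 3.10 FPKM in HKO libraries (0.61, adjusted p = 0.0241). Zfp710 (chromosome 7) was at 1.54, 1.85 and 2.30 FPKM and 2.79, 3.35 and 3.67 FPKM (0.56, adjusted p = 0.0484). Zfp64 (chromosome 2), whose human counterpart keeps the KMT2A (MLL) gene active in leukaemia cells, was at 1.24, 0.936 and 1.49 FPKM and 2.37, 1.94 and 2.43 FPKM (0.55, adjusted p = 0.0486). In all 3 genes the HKO libraries lay above the flox/flox libraries, and the last 2 passed the threshold narrowly.

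**Figure D3:**
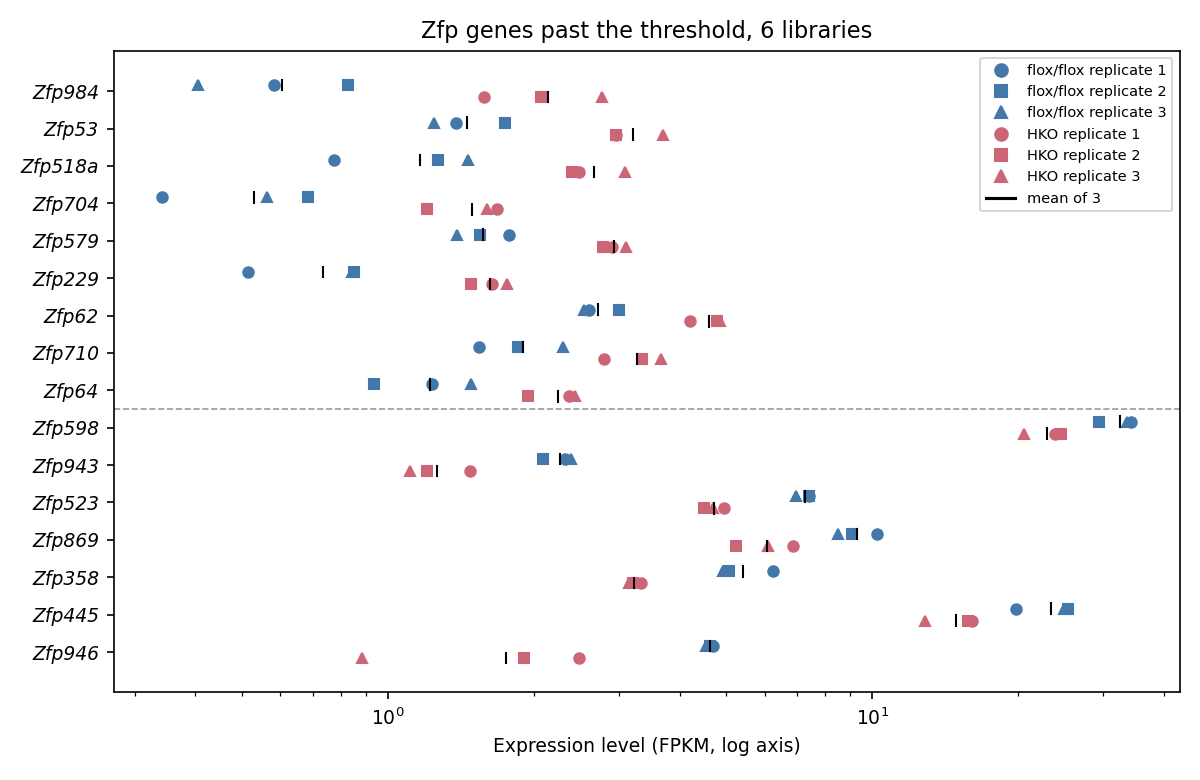
The 16 Zfp genes past the threshold, with the level in each of 6 libraries (FPKM, log axis; blue flox/flox, red HKO, shape by replicate) and the group mean (black tick); the dashed line separates rises from falls. In all 16 genes the 3 HKO values lie on one side of the 3 flox/flox values, and HKO replicate 3 is the lowest for Zfp946.

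The largest fall was that of Zfp946 (ENSMUSG00000071266, chromosome 17, 22424222 to 22456689, plus strand), a KRAB gene of 11 fingers. It was measured at 4.70, 4.63 and 4.54 FPKM in flox/flox and at 2.48, 1.91 and 0.883 FPKM in HKO libraries. The flox/flox libraries were close to each other, while the HKO libraries spread widely and all lay lower. The ratio of flox/flox to HKO means was 2.63, and the log2 difference was -1.07 ± 0.22 (SE, adjusted p = 0.0322). Without HKO replicate 3, its lowest library, the difference was -0.82 and still passed (adjusted p = 0.0407). Leaving out any other single library took it past the threshold, at limma adjusted p of 0.0549 to 0.0882, so it was not called there.

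Zfp943, a KRAB gene between Zfp229 and Zfp946, fell as well, from 2.32, 2.09 and 2.39 FPKM to 1.48, 1.20 and 1.11 FPKM (-0.53, adjusted p = 0.0369). Zfp53, Zfp229, Zfp943 and Zfp946 belong to a run of 12 KRAB members on chromosome 17 between 21008941 and 22867134 (GRCm38), from Zfp160 to Zfp945, picked out after the values were seen. In this run 2 genes rose, 2 fell and 8 did not pass, with log2 differences from -1.07 to 0.78. Neighbouring genes of 1 cluster thus lay on opposite sides. In all, chromosome 17 held 30 members with 2 rises and 4 falls, and chromosome 7, with the most members, 37 with 2 rises and 0 falls by limma (5 with an unadjusted p under 0.05). Beside the 5.95% of rises and 6.86% of falls over all features, these are differences of a few genes.

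Zfp445 (ENSMUSG00000047036, chromosome 9, 122844529 to 122866006, minus strand) encodes a KRAB protein that, with Zfp57, keeps methylation at imprinting control regions in mouse. It was among the most abundant members, at 19.8, 25.4 and 24.9 FPKM in flox/flox and 16.1, 15.8 and 12.9 FPKM in HKO libraries. The HKO values were all lower, with means of 23.3 ± 3.11 and 14.9 ± 1.77 FPKM (SD, n = 3) and a log2 difference of -0.61 ± 0.15 (SE, adjusted p = 0.0423). The fall did not pass under any other scaling. Its limma adjusted p was 0.0600 by median of ratios, 0.113 by quantile normalization and 0.0585 by voom. With the common sum it was 0.335 and with library totals 0.349. It passed in 7 of 19 alternative fits.

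Zfp598, whose human counterpart is the ubiquitin ligase that marks collided ribosomes, had the highest level of the family. It was measured at 34.2, 29.4 and 33.6 FPKM in flox/flox and 23.9, 24.5 and 20.6 FPKM in HKO libraries, so the groups did not overlap. The difference was -0.48 ± 0.12 (SE) on the log2 scale and passed narrowly (adjusted p = 0.0491). It passed in 4 of 19 alternative fits, fewer than any other called member.

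The other falls were of similar size. Zfp358 (chromosome 8) was at 6.23, 5.07 and 4.92 FPKM in flox/flox and 3.33, 3.21 and 3.14 FPKM in HKO libraries (-0.59, adjusted p = 0.0269). Zfp869 (chromosome 8), a KRAB gene with 9.34% of its words shared, mainly with Zfp868, was at 10.2, 9.09 and 8.51 FPKM and 6.86, 5.24 and 6.09 FPKM (-0.54, adjusted p = 0.0401). Zfp523 (chromosome 17), the counterpart of human ZNF76 and a relative of the promoter-binding activator Zfp143, was at 7.40, 7.41 and 6.96 FPKM and 4.95, 4.49 and 4.68 FPKM (-0.53, adjusted p = 0.0224). All 3 genes had every HKO library below every flox/flox library. Zfp869 passed in 6 of 19 alternative fits and, like Zfp445, under no other scaling. Zfp523 was the only member still called when no filter on level was applied.

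Several abundant members did not pass. Zfp36l1 and Zfp36l2, which bind AU-rich elements and hasten mRNA decay, were the next most abundant after Zfp598. Zfp36l1 was measured at 18.4, 22.8 and 27.8 FPKM in flox/flox and 28.0, 36.3 and 18.1 FPKM in HKO libraries (0.21, adjusted p = 0.621, 95% interval -0.43 to 0.85). Zfp36l2 was at 30.0, 22.4 and 21.8 FPKM and 20.4, 32.1 and 22.9 FPKM (0.01, adjusted p = 0.981, 95% interval -0.48 to 0.50). In both genes the groups overlapped, and 56.9% of the words of Zfp36l1 are shared with other genes, most often Gm26669. Zfp706, a small protein with 1 finger motif, differed by -0.04 with a 95% interval of -0.31 to 0.24 (adjusted p = 0.859).

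Zfp970, a KRAB gene on chromosome 2, stood at 19.6, 19.6 and 26.8 FPKM in flox/flox and 17.8, 12.2 and 4.33 FPKM in HKO libraries. Its mean difference of -1.05 was about as large as that of Zfp946, but its HKO libraries were far apart, replicate 3 being the lowest. The SE was 0.44 (limma adjusted p = 0.148). Of the 50-base words of its transcript, 57.2% also occur in transcripts of other genes, most often Gm14440, so its level is uncertain. Zfp467, which in mouse marrow stromal cells favours fat over bone differentiation, was at 3.36, 4.13 and 5.81 FPKM and 6.80, 7.27 and 10.8 FPKM (0.78, adjusted p = 0.0639). All its HKO values were higher than its flox/flox values. It did not pass at the deposited scale but did when scaled to library totals (1.12, adjusted p = 0.0298) or to the common sum (1.11, adjusted p = 0.0257) and by voom (1.003, adjusted p = 0.0474).

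By role, each list held 0 or 1 called gene, which with 12.8% of all features called and lists this small says little about any of them. Of 7 listed genes of imprint and retroelement control 5 were tested, and Zfp445 was the 1 that fell; Zfp809, which silences retroviruses in mouse embryonic cells, differed by -0.37 (adjusted p = 0.326). Of 15 genes with RNA or ribosome functions 13 were tested, with Zfp598 the 1 fall. Among 16 tested of 20 sequence-specific or chromatin regulators without KRAB, Zfp64 was the 1 rise. The Rsl cluster, named for the regulator of sex-limitation genes in mouse liver, had 2 of 8 genes tested. None was called by limma, none had an unadjusted p under 0.05, and Zfp595 differed by -0.23 (adjusted p = 0.271). Of 8 adipose and metabolic regulators 3 were tested (Zfp125 among them, a pseudogene in the deposited table and no member), with none called and 1 at an unadjusted p under 0.05, which was Zfp467.

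Partners of the KRAB box were not called at the deposited scale, and some were under other scalings. Of 23 listed corepressor genes 22 were tested, with 0 called by limma, 6 at an unadjusted p under 0.05 and a median log2 difference of 0.02. Trim28, the adaptor itself, named for its role outside the naming rule, was at 20.01, 18.9 and 16.9 FPKM in flox/flox and 17.5, 15.7 and 21.4 FPKM in HKO libraries (-0.04, adjusted p = 0.874). Its groups overlapped. Setdb1, the methyltransferase, differed by 0.37 (adjusted p = 0.0687, 95% interval 0.11 to 0.62), and the remodeller Chd3 by 0.08 (adjusted p = 0.815). Setdb1 passed as higher when scaled to library totals (0.71, adjusted p = 0.0217) or to the common sum (0.71, adjusted p = 0.0170) and by voom (0.52, adjusted p = 0.0412). Of the 22 tested corepressor genes 7 rose under each of the first 2 scalings and 3 under voom, and none fell. Over all features 19.2%, 21.3% and 7.92% rose under these 3 scalings, and 1.92%, 1.99% and 4.57% fell. With a list this small, the counts say little about the partners as a set. Of 7 genes listed for the HUSH silencing complex and its partners none was called by limma, and 3 had an unadjusted p under 0.05. Under each of those 3 scalings the only calls in this list were rises of Atf7ip and Setdb1. Both genes are also on the corepressor list and are already counted there.

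KRAB genes and the others gave close counts. A KRAB box, from the authors' family column or a motif in the translated coding sequence, was found for 84 members, of which 3 rose and 4 fell, with a median of -0.09. Of the 103 without it 6 rose and 3 fell, with a median of 0.02. KRAB members had a median of 11 finger motifs and the others 7, the whole family ranged from 0 to 30, and 6 members had none. Among the 37 members with 0 to 4 fingers 1 rose and 1 fell, among 65 with 5 to 9 fingers 3 rose and 2 fell, and among 58 with 10 to 14 fingers 2 rose and 4 fell. The 27 members with 15 or more fingers held 3 rises (Zfp53, Zfp229 and Zfp62) and 0 falls by limma, at 5 with an unadjusted p under 0.05, and a median of -0.06. Over all features 5.95% rose and 6.86% fell, so each class held few calls more or less than that share, and the difference between classes was not tested.

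**Figure D4:**
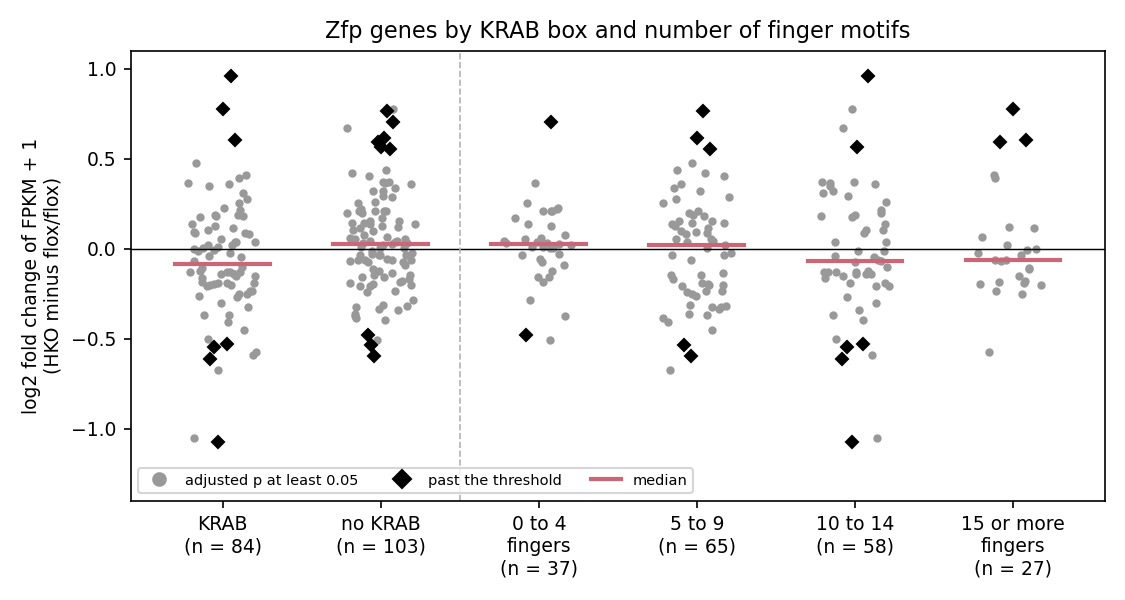
Log2 fold changes of FPKM + 1 (HKO minus flox/flox) of the 187 Zfp genes, split by KRAB box (left of the dashed line) and by number of finger motifs (right), so each gene appears once on each side; points are spread sideways for legibility. Medians (red lines) lie between -0.09 and 0.02, and calls (black diamonds) occur in every class.

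Related zinc finger families at the same level threshold gave a few calls each, beside 5.95% rises and 6.86% falls over all features. Of 30 Zbtb genes 2 rose (Zbtb18 by 0.65 and Zbtb39 by 0.40) and 0 fell by limma, and 8 had an unadjusted p under 0.05. Of 15 Zkscan and Zscan genes 0 were called by limma and 3 had an unadjusted p under 0.05. Of 11 Klf genes Klf6 was the 1 call, a rise of 1.47. Differences between families were not tested.

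Within groups, Zfp genes varied most in the first flox/flox and the third HKO library. The counts below were not made over all features, so this is not shown to be particular to Zfp genes. The highest library was at least 2-fold above the lowest in 15 members among flox/flox and in 8 among HKO libraries. Flox/flox replicate 1 was at least 1.5 times both other flox/flox libraries for 12 members and at most 1/1.5 of both for 14. Among the first was Zfp385a, an RNA-binding protein, with 11.6 FPKM there against 3.16 and 4.89 FPKM, and Zfp622, a factor of ribosome maturation, with 7.64 against 3.97 and 4.22 FPKM. HKO replicate 3 was at most 1/1.5 of both other HKO libraries for 8 members, Zfp946 and Zfp970 among them, and at least 1.5 times both for none.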

How the data were processed

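Poly(A)-selected liver RNA was sequenced from both ends in 6 libraries, per the labels' protocols and the design text. HISAT2 2.0.5, featureCounts 1.5.0-p3, DESeq2 1.16.1 and GRCm38.p6 are named in the submitters' processing notes. The authors deposited FPKM for 54086 features (285 unnamed). Within 0.01 read, 100% of values were whole reads. The denominator matched median-of-ratios size factors times a common depth. The sources used here do not say how multi-mapped reads and strand were counted. FPKM are not counts, so limma 3.58.1 (R 4.3.3) was fitted to log2(FPKM + 1) of the features whose mean reached 1 FPKM, genotype as the only term, with a variance trend and two-sided Benjamini-Hochberg adjustment at 0.05 over all 11086. Differences are given as HKO minus flox/flox. Tested on simulated data, the procedure missed most 2-fold changes, found nearly all 4-fold ones, and made false calls above its nominal rate. In that simulation 200 genes were changed and the spread between libraries was set, not estimated from these data. The real fit called 1421 features, so the simulated rates do not carry over to it. A member not called may still differ, and a call near the threshold is weak.

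Members and lists were chosen with earlier results of these data known. Named genes were Mettl3, up to 12 rises and 12 falls among the members called, the 6 most abundant members, up to 4 called genes or the most abundant gene of each role list, and the members nearest the level threshold on each side. Genes named outside it, such as Trim28, Zfp809, the Zbtb and Klf genes, Zfp385a and Zfp622, were chosen after their values were seen. Finger and KRAB motifs were found in GENCODE coding sequences translated by script, and shared sequence as 50-base words. Python 3.11.15, pandas 2.3.3 and matplotlib 3.10.9 were used. All 6 sample columns were used. Alternatives covered the pseudocount, filter, scaling, variance model, voom, replicate block and leaving out each library.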

Additional observations from a re-analysis of the deposited data

How the results depend on the processing

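In 20 other settings no called Zfp gene changed sign. The main counts were 9 rises and 7 falls with a median log2 difference of -0.013. Without a filter on level, 0 rises and 1 fall remained by limma, where 1.97% of 25877 features were called. At a mean of 2 FPKM 3 of 112 members rose. Median-of-ratios scaling gave 4 falls, quantile normalization 5 rises and 4 falls, and voom 14 rises and 4 falls. Library totals gave 32 rises, 1 fall and a median of 0.28, and the common sum 36, 1 and 0.28. Leaving out each library in turn gave 0 to 7 rises, 0 to 5 falls and medians of -0.031 to 0.024. With the replicate block 0 members rose and 0 fell by limma in a fit that called 1.80% of all features. Without it the counts were 9 and 7, with 12.8% of all features called. The deviations of same-numbered libraries correlated at -0.0026, -0.10 and -0.067. The replicate numbers thus do not show pairs, and a loss under the block is no sign of a weaker effect. Pseudocounts of 0.5 and 0.1, a filter at 0.5 FPKM, no variance trend, protein-coding genes only, and leaving out Zfp36l1 and Zfp36l2 kept both counts within 1.5 times. So did a split added after seeing the data, the 126 members with under 5% shared words (7 rises, 5 falls, median 0.02). Where counts moved, the cause was not tested. Depth limits the low members: the lowest read count in a library had a median of 134 over members and a minimum of 9.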

Other observations

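Below the level threshold 65 more protein-coding Zfp genes had a mean of 0.5 to 1 FPKM. In the fit with a filter at 0.5 FPKM, 1 of them was called by limma, a fall, and 6 had an unadjusted p under 0.05; that fit called 11.5% of its 12965 features (5.87% higher, 5.62% lower). This was Zfp982, a KRAB gene on chromosome 4 (147492417 to 147513486, GRCm38), at 0.728, 1.40 and 1.24 FPKM in flox/flox and at 0.139, 0.110 and 0.331 FPKM in HKO libraries. Every HKO library was lower, by -0.82 on the log2 scale (limma adjusted p = 0.0330), from 3 to 32 reads a library. Since every HKO value was under 0.5 FPKM, Zfp982 met this filter only through its flox/flox libraries. Its place among the falls is thus partly given by the filter. It lies in the same stretch of chromosome 4 as Zfp984, which rose.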
